A study of Mus musculus with 18 samples.

Results

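The 9 genes described here encode fibrillar collagen chains (Col1a1, Col1a2, Col3a1, Col5a1, Col5a2 and Col11a1, 6 genes) and the chains of type VI collagen (Col6a1, Col6a2 and Col6a3, 3 genes). They were taken by gene symbol from the 54446 gene identifiers of the count files, and all 9 were found. They were chosen by their levels and changes over the 6 groups of these libraries, with earlier results in view, so their levels and changes are a description, and the fitted p-values below are no independent evidence for them. The RNA came from embryoid bodies of C57BL/6 mouse stem cells, clumps in which such cells differentiate on plates they cannot attach to. Before that, the cells had been kept in LIF with CHIR99021 and PD0325901, and the bodies grew for 7 days in medium with serum, without feeders or LIF. There were 6 groups of 3 libraries. In a Mettl14 line they were a conditional knockout (CKO) with 5 µM GSK343, the CKO with DMSO, and a Control. In a Mettl3 line they were a CKO with 5 µM GSK J4, the CKO with DMSO, and a Control. Mettl14 and Mettl3 encode the paired subunits of the enzyme that places N6-methyladenosine on mRNA. GSK343 inhibits EZH2, which methylates histone H3 at lysine 27, and GSK J4 inhibits the demethylases KDM6A and KDM6B, which remove that mark. The labels name no vehicle for the Controls and no Control with an inhibitor, so an inhibitor, its line and its knockout cannot be told apart. Neither the number of clones per line nor the origin of the replicates in separate cultures is given, and p-values therefore reflect the spread between libraries alone, which may be technical.

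Collagens are secreted proteins of long triple helices in which every chain repeats glycine followed by a pair of other residues, often proline and hydroxyproline. The fibrillar types assemble into the banded fibres that bear load in skin, bone, tendon and vessel walls: type I is built from Col1a1 and Col1a2 chains, type III from Col3a1 alone, and types V and XI start the fibre and limit its width. Type VI collagen forms beaded filaments around cells and needs the products of Col6a1, Col6a2 and Col6a3 together. Fibroblasts and related mesenchymal cells are the main source of these mRNAs in embryos, and embryoid bodies gain such cells as they differentiate.

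The promoter sequences of 4 members are shown because these genes had unlike changes with GSK J4, from a moderate one in Col5a1 to far larger ones in Col3a1 and Col6a2. The RefSeq table (GRCm38.p6) held promoters, 250 bases before to 50 bases after a transcript start, for 7 of the 9 members, with 2 for Col6a2, and none for Col1a1 and Col5a2. Capitals mark matches to 3 short motifs on either strand. The first is CCAAT, which reads as ATTGG when it lies on the other strand. The second is GGGCGG, known from Sp1 sites, which then reads as CCGCCC. The third is TATAA, the core of the TATA box, which then reads as TTATA. The sequences run 5′ to 3′ along the gene's own strand. They are Col1a2 at chr6:4505368-4505667 (+), Col3a1 at chr1:45311288-45311587 (+), Col5a1 at chr2:27886175-27886474 (+), and the first of the Col6a2 promoters at chr10:76623355-76623654 (-).
Col1a2: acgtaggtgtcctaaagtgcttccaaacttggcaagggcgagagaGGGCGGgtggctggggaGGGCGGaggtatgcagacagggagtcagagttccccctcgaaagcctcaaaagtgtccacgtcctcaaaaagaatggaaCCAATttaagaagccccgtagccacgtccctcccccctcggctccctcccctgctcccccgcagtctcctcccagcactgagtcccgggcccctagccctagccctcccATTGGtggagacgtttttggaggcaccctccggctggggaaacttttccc
Col3a1: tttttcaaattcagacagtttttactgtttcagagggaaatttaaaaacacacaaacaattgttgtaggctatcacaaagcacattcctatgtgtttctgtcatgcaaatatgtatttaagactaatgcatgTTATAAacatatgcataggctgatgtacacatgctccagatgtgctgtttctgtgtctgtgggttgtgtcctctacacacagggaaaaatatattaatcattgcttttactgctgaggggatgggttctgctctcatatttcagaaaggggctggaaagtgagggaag
Col5a1: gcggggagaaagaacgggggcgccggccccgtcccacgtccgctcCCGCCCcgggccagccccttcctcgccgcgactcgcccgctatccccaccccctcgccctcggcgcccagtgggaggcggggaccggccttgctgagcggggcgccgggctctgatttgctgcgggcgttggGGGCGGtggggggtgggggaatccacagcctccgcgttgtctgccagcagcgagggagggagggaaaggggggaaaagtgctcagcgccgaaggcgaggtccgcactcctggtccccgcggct
Col6a2: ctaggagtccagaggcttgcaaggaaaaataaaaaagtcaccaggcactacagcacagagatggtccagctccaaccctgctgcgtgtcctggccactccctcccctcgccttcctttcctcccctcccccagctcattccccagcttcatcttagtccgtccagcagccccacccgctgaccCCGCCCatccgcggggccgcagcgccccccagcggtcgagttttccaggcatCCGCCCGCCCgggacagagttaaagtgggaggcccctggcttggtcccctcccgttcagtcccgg
CCAAT occurred in the promoters of 2 of these 7 genes (Col1a2 and Col11a1), against 37.4% of the 32851 RefSeq promoters of the same length. GGGCGG occurred in 4 (Col1a2, Col5a1, Col11a1 and Col6a2), against 35.7% of all promoters. TATAA occurred in Col3a1 alone, against 24.9% of all promoters. There the matches on both strands overlap each other and begin 118 and 117 bases before the start. Matches were taken at any position, so they do not show a working motif. The Col6a1 and Col6a3 promoters held none of these letters. The RefSeq starts of Col1a2, of Col6a1 and of the first Col6a2 promoter lie inside the longer genes annotated by GENCODE.

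Depth ran from 721853 to 20714764 counts per library in the Mettl14 line and from 3395675 to 32540164 in the Mettl3 line, with 3395675 to 8289423 in the GSK J4 libraries. The 2 shallowest were GSK343 replicate 3 (721853 counts) and Mettl14 CKO replicate 3 (1303697 counts). In the latter 7.57% of counts overlapped rRNA, against 0.233 to 1.34% in the other libraries. Mettl14 had 17.1, 24.6 and 20.2 CPM (counts per 1000000 counts of the TMM-scaled library) in the libraries labelled Mettl14 CKO, against 17.7, 19.2 and 17.6 CPM in Mettl14 Control. Mettl3 had 25.9, 6.89 and 17.8 CPM in those labelled Mettl3 CKO, against 20.1, 34.1 and 18.8 CPM in Mettl3 Control. Gene-level counts therefore did not separate knockout from control in either line, and group names are those of the labels; which part of each gene is deleted is not given in the sources used here. Of 8 pluripotency markers, Utf1 had no count in 17 of the 18 libraries, Pou5f1 in 14, Nanog and Zfp42 in 12 each and Dppa5a in 11. Sox2 had none in 4 and Esrrb in 2, with medians of 0.804 and 0.789 CPM over the 18 libraries. Klf4, which other cells also express, was detected in all. Mesenchyme markers other than collagens (Pdgfra, Pdgfrb, Thy1, Prrx1, Twist1, Twist2, Dcn, Lum, Postn and Vim) were all detected in every group. The GSK J4 libraries stood apart. Mitochondrial mRNA made up 0.112 to 0.244% of their counts, against 1.29 to 3.24% in the other 15 libraries. Their mesenchyme marker sum was 2178 to 3274 CPM, against 5360 to 5861 CPM in Mettl3 CKO, and none of the 10 markers was at 0 over the group. The sum of 6 epithelial markers (Cdh1, Epcam, Krt8, Krt18, Krt19 and Cldn6) was 37.3 to 206 CPM with GSK J4, against 1.28 to 10.4 CPM in Mettl3 CKO. That of 5 endothelial markers (Pecam1, Cdh5, Kdr, Tek and Tie1) was 39.8 to 51.5 CPM, against 11.4 to 18.9 CPM in Mettl3 CKO. None of the markers of these 2 lists was at 0 over the GSK J4 group. Endoderm markers summed to 7.66 to 20.4 CPM with GSK J4, against 0.154 to 1.60 CPM in Mettl3 CKO, and cardiac muscle markers to 11.8 to 67.4 CPM, against 1.69 to 5.84 CPM. Ttr of the 6 endoderm markers and Actc1 of the 5 cardiac ones were at 0 with GSK J4. Lower sums were those of chondrocyte markers, at 37.4 to 54.4 CPM with GSK J4 against 188 to 505 CPM in Mettl3 CKO, of osteoblast markers, at 22.9 to 83.1 CPM against 103 to 132 CPM, and of neural markers, at 66.1 to 80.0 CPM against 176 to 195 CPM. With GSK J4, Comp and Matn1 of the 6 chondrocyte markers and Bglap, Dmp1 and Sp7 of the 6 osteoblast markers were at 0, and none of the 5 neural ones. A single gene can carry such a sum. Over the 18 libraries Col2a1 reached 392 CPM, against 79.6 CPM for Sox9 and at most 17.8 CPM for the other chondrocyte markers. Nes reached 177 CPM, against at most 39.5 CPM for the other neural markers. The sums of the 8 pluripotency markers (79.0 to 158 CPM with GSK J4, against 46.9 to 82.5 CPM in Mettl3 CKO) and of 5 blood markers (4.42 to 79.4 CPM, against 6.25 to 10.8 CPM) overlapped. Mettl3 Control gave another reading for some sums. The pluripotency sum with GSK J4 lay above its 59.0 to 61.7 CPM. The osteoblast sum overlapped with its 75.7 to 94.4 CPM, and the blood sum with its 5.09 to 7.26 CPM. The cardiac muscle sum, lowest at 11.75 CPM with GSK J4, narrowly overlapped with its 3.146 to 11.76 CPM. The other sums kept their direction against Mettl3 Control without overlap. These values move with every GSK J4 result below, and their part in it was not tested. In bulk RNA, fewer cells of a type and less RNA per cell cannot be told apart.

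Together the 9 genes took 0.0980 to 0.146% of all counts in the GSK J4 libraries, against 1.48 to 1.78% in Mettl3 CKO and 0.946 to 1.54% in Mettl3 Control. In the Mettl14 line they took 0.843 to 1.08% with GSK343, 0.899 to 1.33% in Mettl14 CKO and 1.30 to 1.62% in Mettl14 Control. On the scale of CPM per kilobase of merged exons, which allows genes to be compared, Col1a1 had the highest level of the 9 in all 5 groups without GSK J4. Its mean level there ran from 674 CPM per kb in Mettl3 Control to 1178 CPM per kb in Mettl14 Control, and in each of the 5 groups every library of Col1a1 lay above every library of Col1a2, the next gene. Col1a2 had mean levels of 157 to 279 CPM per kb in these 5 groups. In the 3 groups of the Mettl14 line Col5a2, Col5a1 and Col6a1 followed in that order, and Col6a2 was the lowest but for Col11a1. In Mettl3 CKO and Mettl3 Control Col6a1 came next after Col1a2, at 143 and 164 CPM per kb, and overlapped with Col5a2, while Col6a2 again had the lowest mean but for Col11a1. In Mettl3 Control Col6a1 also overlapped with Col1a2. Col3a1 and Col6a3 lay between and overlapped with each other in all 5 groups. Col11a1, a chain known mainly from cartilage, was the lowest in each of the 5 groups, at mean levels of 0.712 to 4.33 CPM per kb, with every library below those of the next gene. With the length of the longest transcript in place of merged exons, Col1a1 and Col11a1 held the same ends of the order and Col1a2 stayed next to Col1a1. The order between them depended on the length used. With the longest transcript Col6a3, not Col6a2, was the lowest but for Col11a1 in Mettl3 CKO and Mettl3 Control. Col6a1 no longer came next after Col1a2 there. In Mettl14 CKO, with GSK343, in Mettl3 CKO and in Mettl3 Control Col3a1 then had a higher mean than Col6a1. In Mettl14 CKO and with GSK343 Col3a1 also no longer overlapped with Col6a3.

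**Figure D1:**
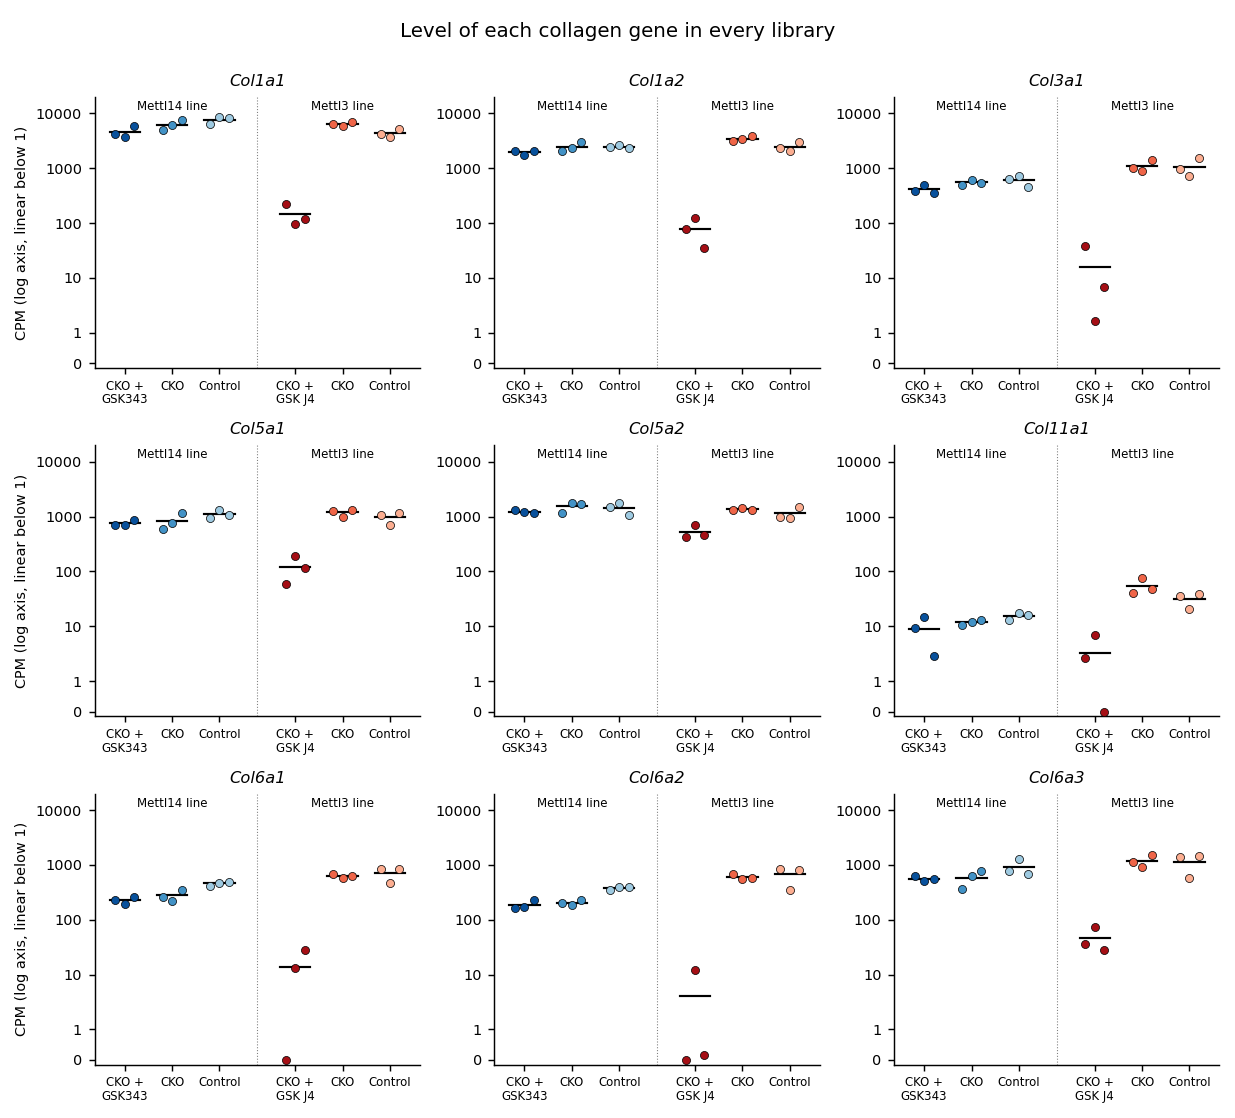
TMM-scaled CPM of the 9 genes (vertical axis, logarithmic above 1 CPM and linear below) in each of the 18 libraries, by group. Points are libraries and bars are group means; in all 9 panels the 3 GSK J4 libraries lie below those of Mettl3 CKO and Mettl3 Control, with Col5a2 nearest to them.

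The Col6a2 to Col6a1 ratio per length was 0.437 ± 0.0583 with GSK343, 0.398 ± 0.0508 in Mettl14 CKO and 0.430 ± 0.00611 in Mettl14 Control (SD, n = 3). It was 0.507 ± 0.0168 in Mettl3 CKO and 0.477 ± 0.0771 in Mettl3 Control. The Col1a2 to Col1a1 ratio was 0.286 ± 0.0223 in Mettl3 CKO and 0.296 ± 0.00600 in Mettl3 Control, above the 0.149 to 0.255 of the 9 Mettl14 libraries. With the longest transcript as the length the Col1a2 to Col1a1 group means were 0.359 to 0.714, so the absolute ratio depends on which annotated transcripts are made. Across the 15 libraries without GSK J4, log2 levels of the 9 genes had a median pairwise Pearson r of 0.677 over 36 pairs. The pair Col6a1 and Col6a2, neighbours 85.2 kb apart on chromosome 10 and on the same strand, had the highest r (0.981). Col5a2 and Col6a2 had the lowest (-0.128). These libraries share their lines and culture, so the r values describe them and carry no test.

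In the Mettl3 line all 9 genes were lower with GSK J4. All 9 were called lower against Mettl3 CKO, where 13% of the 16782 genes tested were called and 9.07% were called lower (edgeR quasi-likelihood test, Benjamini-Hochberg adjusted p under 0.05). All 9 were also called lower against Mettl3 Control, where 11.4% of genes were called and 8.25% were called lower (531 higher and 1385 lower, or 994 and 1088 scaled by total counts). The libraries of all 9 genes lay below without overlap in both comparisons, as they did for 23.2 and 24.1% of the genes tested. Both comparisons use the same GSK J4 libraries. The members' median log2 change was -5.41 against Mettl3 CKO and -4.89 against Mettl3 Control, beside medians of -0.06 and -0.08 over all genes tested. Over all genes 664 were higher and 1522 lower against Mettl3 CKO. Scaled by total counts without TMM factors they were 1181 and 1231, the median of all genes was 0.19, and each member's change was nearer 0 by 0.23 to 0.25 on the log2 scale. DESeq2 split its calls as 1568 higher and 2132 lower.

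Col1a1 encodes the more abundant chain of type I collagen. It had 222, 95.8 and 118 CPM with GSK J4, against 6401, 5952 and 6884 CPM in Mettl3 CKO and 4263, 3718 and 5297 CPM in Mettl3 Control. The GSK J4 libraries lay far below all others, and Mettl3 CKO lay above Mettl3 Control without overlap. Col1a1 fell by 5.42 ± 0.33 on the log2 scale against Mettl3 CKO (SE, edgeR adjusted p = 4.92e-06), which leaves 0.0234 times the level there. Col1a2, the partner chain, had 77.0, 123 and 35.9 CPM with GSK J4, against 3169, 3430 and 3816 CPM in Mettl3 CKO and 2342, 2081 and 3025 CPM in Mettl3 Control. Its change was -5.41 ± 0.41 against Mettl3 CKO, close to that of Col1a1 (edgeR adjusted p = 2.21e-05). Their ratio was uneven with GSK J4, at 0.183, 0.675 and 0.161 in the 3 libraries, and replicate 2 had both the least Col1a1 and the most Col1a2.

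Col3a1 encodes the only chain of type III collagen. It had 38.4, 1.62 and 6.75 CPM with GSK J4, against 995, 901 and 1391 CPM in Mettl3 CKO and 959.9, 735 and 1534 CPM in Mettl3 Control. Replicate 1 alone supplied most of the remaining signal, and replicate 2 had 16 counts. The change was -6.16 ± 0.90 against Mettl3 CKO (edgeR adjusted p = 0.00126), and without GSK J4 replicate 1 it was -8.22. Against Mettl3 Control it was -6.13 ± 0.90, and -8.19 without that library. By limma voom Col3a1 was at -7.28 and -7.31 (adjusted p = 0.00695 and 0.007).

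The type V and XI chains did not change alike. Col5a2 had 423, 699.7 and 470.3 CPM with GSK J4, against 1305, 1456 and 1343 CPM in Mettl3 CKO and 979.6, 952 and 1502 CPM in Mettl3 Control. It was lower in every GSK J4 library and had the smallest change of the 9 genes, -1.32 ± 0.23 against Mettl3 CKO (edgeR adjusted p = 0.00396) and -1.06 ± 0.23 against Mettl3 Control (edgeR adjusted p = 0.0135). The second of these calls was lost with only the 2 groups compared in the fit (adjusted p = 0.0571) and without Mettl3 Control replicate 3 (-0.83, edgeR adjusted p = 0.0727). Col5a1, its partner in type V collagen, had 59.95, 193 and 114 CPM with GSK J4, against 1258, 983 and 1324 CPM in Mettl3 CKO and 1057, 701 and 1147 CPM in Mettl3 Control. Its change was -3.23 ± 0.37 against Mettl3 CKO (edgeR adjusted p = 0.000285). Col11a1 had 2.64, 7.07 and 0 CPM with GSK J4 (11, 70 and 0 counts), against 41.3, 76.8 and 47.6 CPM in Mettl3 CKO and 35.6, 20.8 and 38.5 CPM in Mettl3 Control. Its change was -3.99 ± 0.93 against Mettl3 CKO (edgeR adjusted p = 0.0174) and -3.19 ± 0.90 against Mettl3 Control (edgeR adjusted p = 0.0429). Without GSK J4 replicate 2 these were -5.48 and -4.68, and by limma voom Col11a1 was at -4.83 and -4.30 (adjusted p = 0.0474 and 0.078). The first call was lost without Mettl3 CKO replicate 2 (adjusted p = 0.0700) and with only the 2 groups compared in the fit (adjusted p = 0.0705), and the second under 8 of 14 alternatives, among them the omission of any 1 of the Mettl3 Control libraries or of GSK J4 replicate 1 (adjusted p = 0.0583 to 0.126).

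Of the type VI genes, Col6a1 and Col6a2 had no count in 1 GSK J4 library, and Col6a3 was detected in all. Col6a1 had 0, 13.1 and 28.5 CPM with GSK J4, against 685, 567 and 629.6 CPM in Mettl3 CKO and 852, 473 and 826 CPM in Mettl3 Control. The 0 of replicate 1 allows a level of up to 0.884 CPM before TMM scaling (3 counts, counting error only). The change was -5.43 ± 0.85 against Mettl3 CKO (edgeR adjusted p = 0.00192) and -5.62 ± 0.86 against Mettl3 Control, and without GSK J4 replicate 3 these were -6.47 and -6.67. By limma voom with quality weights they were -7.94 and -8.17 (adjusted p = 0.00928 and 0.00799). Col6a2 had 0, 12.1 and 0.169 CPM with GSK J4 (0, 120 and 1 counts), against 683, 542 and 589 CPM in Mettl3 CKO and 849.6, 349 and 814 CPM in Mettl3 Control. Replicate 2 held nearly all of its counts. The change was -6.95 ± 1.02 against Mettl3 CKO (edgeR adjusted p = 0.0013) and -7.10 ± 1.02 against Mettl3 Control. Without replicate 2 the fit gave -12.47 and -12.62, values that rest on a single count. By limma voom Col6a2 was at -9.67 and -9.86 (adjusted p = 0.0292 and 0.0278). Col6a3, the longest of the chains, had 35.7, 73.4 and 28.7 CPM with GSK J4, against 1117, 915 and 1501 CPM in Mettl3 CKO and 1395, 576 and 1458 CPM in Mettl3 Control. Its change was -4.62 ± 0.46 against Mettl3 CKO (edgeR adjusted p = 0.000103).

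**Figure D2:**
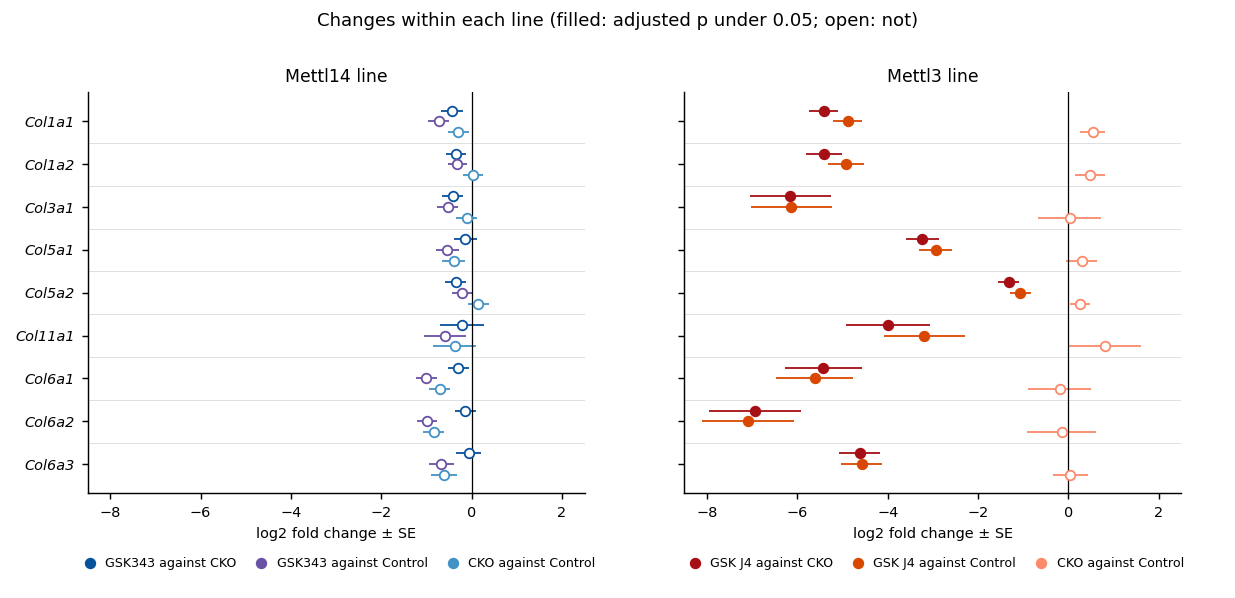
Log2 fold change with its SE (horizontal axis) of the 9 genes in the 3 comparisons within the Mettl14 line (left) and the Mettl3 line (right), from edgeR fits of 9 libraries each. Filled points passed the adjusted threshold; all GSK J4 points are filled, from -7.10 for Col6a2 to -1.06 for Col5a2, and none is filled in the Mettl14 line.

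With GSK J4 the order of levels per length differed from that of the other 5 groups. Col5a2 was the highest of the 9 at 55.4 ± 15.4 CPM per kb (SD, n = 3), and all of its libraries lay above those of Col1a1 at 22.1 ± 10.3 CPM per kb. Of the summed counts per kb of the 9 genes, Col5a2 made up 44.9, 55.5 and 52.8% in the GSK J4 libraries, against 6.98, 8.35 and 6.55% in Mettl3 CKO. Col1a1 made up 34.4, 11.1 and 19.3% with GSK J4, against 49.6 ± 0.493% in Mettl3 CKO (SD, n = 3). The Col5a2 to Col5a1 ratio per length was 4.37 ± 1.64 with GSK J4, 1.04 ± 0.23 in Mettl3 CKO and 1.06 ± 0.21 in Mettl3 Control, without overlap between the GSK J4 libraries and the others. Col5a2 lies next to Col3a1 on chromosome 1, tail to tail, with 24.6 kb between them in GENCODE M21 (Col3a1 at chr1:45311538-45349706 on the + strand, Col5a2 at chr1:45374321-45503282 on the - strand). The Col5a2 to Col3a1 ratio per length was 11.3, 443 and 71.3 in the GSK J4 libraries, against 1.34, 1.65 and 0.988 in Mettl3 CKO and 1.04, 1.33 and 1.00 in Mettl3 Control. All 3 GSK J4 libraries lay above the others, and within them the ratio itself was uneven.

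**Figure D3:**
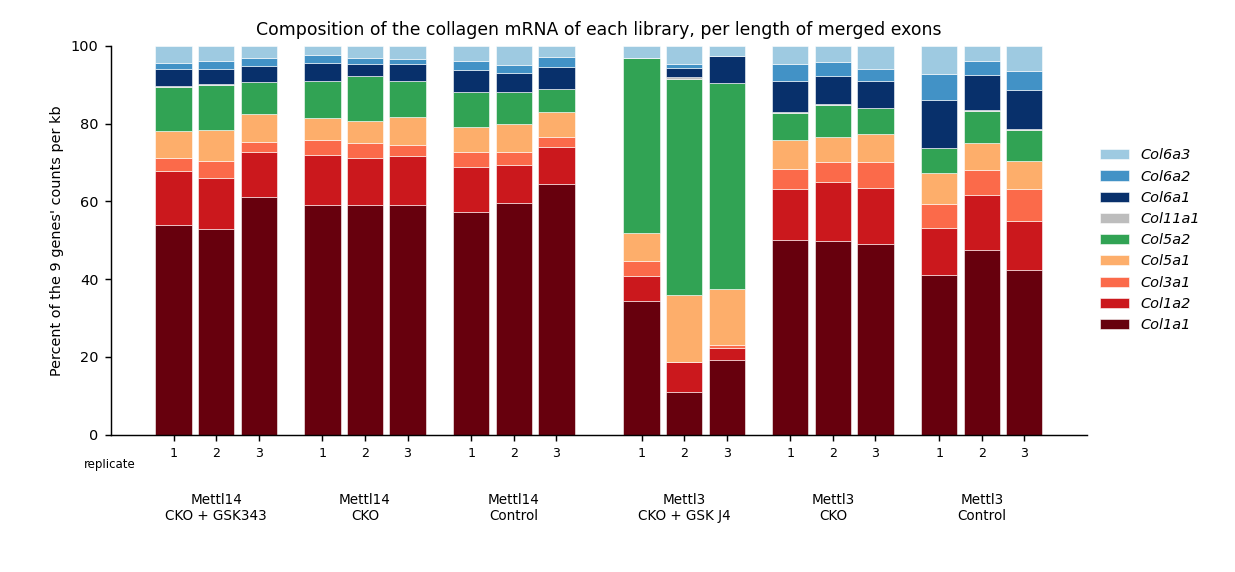
Share of each gene in the 9 genes' summed counts per kb of merged exons (vertical axis, percent) in each of the 18 libraries (bars, by group and replicate). Col1a1 is the largest part of every bar outside the GSK J4 group, where Col5a2 takes 44.9 to 55.5%.

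In the Mettl14 line no member was called in any comparison. For the Mettl14 CKO against Control the background was 0% of 13882 genes, for GSK343 against Mettl14 CKO 0.0288%, and for GSK343 against Control 0.166%. These 3 comparisons share libraries. In the first, 208 genes had an unadjusted p under 0.05 and DESeq2 also called 0. The members' median log2 change was -0.37 in Mettl14 CKO against Control, -0.30 with GSK343 against Mettl14 CKO and -0.59 with GSK343 against Control, beside 0.01, -0.04 and -0.01 over all genes. Some values lean on Mettl14 CKO replicate 3, a shallow library. Without it Col5a1 moved from -0.40 to -0.74 and Col6a3 from -0.61 to -0.87 in Mettl14 CKO against Control. With GSK343 against Mettl14 CKO the same 2 genes then moved above 0 (0.20 each). No member was called in either comparison without it.

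In Mettl14 CKO against Control the 3 type VI genes had the lowest estimates of the 9, and Col6a1 and Col6a2 those with GSK343 against Control, while with GSK343 against Mettl14 CKO Col1a1 had the lowest (-0.44 ± 0.24) and Col6a3 the highest (-0.06 ± 0.28). Col6a2 had 161, 172 and 233 CPM with GSK343, 202, 184 and 231 CPM in Mettl14 CKO, and 343, 389.6 and 392 CPM in Mettl14 Control. The Control libraries lay above the other 6, while GSK343 and Mettl14 CKO overlapped. The change was -0.84 ± 0.22 in Mettl14 CKO against Control (edgeR adjusted p = 1, unadjusted 0.00119, rank 9 of 13882 genes by p) and -0.98 ± 0.23 with GSK343 against Control (edgeR adjusted p = 0.115). Col6a1 had 229.7, 192 and 259 CPM with GSK343, 259, 219.5 and 356 CPM in Mettl14 CKO, and 415, 475 and 487 CPM in Mettl14 Control. The Control libraries again lay above the other 6, with a value of -0.70 ± 0.23 in Mettl14 CKO against Control (edgeR adjusted p = 1). With GSK343 the estimate was lower by 1.00 ± 0.23 on the log2 scale against Control (edgeR adjusted p = 0.132). Both genes were called lower with GSK343 against Control by DESeq2 (adjusted p = 0.017 for Col6a1 and 0.00911 for Col6a2), by limma voom with quality weights, without the low-count filter, and without the 2 shallowest libraries. In that order, these fits called 70 of 13882, 65 of 13882, 63 of 25672 and 37 of 14547 genes. Col6a3 had 632, 506 and 551 CPM with GSK343, 369.8, 623 and 773 CPM in Mettl14 CKO, and 778, 1285 and 676 CPM in Mettl14 Control. The GSK343 libraries lay below the Controls, with a change of -0.68 ± 0.28 against them that was not called.

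Among the fibrillar genes of this line, Col1a1 had 4222, 3734 and 5810 CPM with GSK343, 4935, 6204 and 7468 CPM in Mettl14 CKO, and 6420, 8594 and 8186 CPM in Mettl14 Control. The GSK343 libraries lay below the Controls and overlapped Mettl14 CKO, with a change against Control of -0.73 ± 0.24 (edgeR adjusted p = 0.629). Col1a2 had 2038, 1723 and 2084 CPM with GSK343, 2026, 2380 and 2998 CPM in Mettl14 CKO, and 2446, 2648 and 2303 CPM in Mettl14 Control. Its GSK343 libraries also lay below the Controls and overlapped Mettl14 CKO, with a change of -0.32 ± 0.22 against Control that was not called. Col5a1 had 703, 714 and 884 CPM with GSK343, against 959, 1342 and 1091 CPM in Mettl14 Control, and -0.54 ± 0.25 there. Col3a1, Col5a2 and Col11a1 overlapped between GSK343 and Control, at -0.53 ± 0.23, -0.20 ± 0.23 and -0.59 ± 0.47. In all, the libraries of 6 members lay below Control without overlap with GSK343 (7.17% of genes did), those of 3 members in Mettl14 CKO (Col6a1, Col6a2 and Col11a1, against 4.77% of genes), and those of Col3a1 alone with GSK343 against Mettl14 CKO (5.29% of genes). Col11a1 was barely separated, at 13.18 CPM in the shallow Mettl14 CKO replicate 3 (15 counts) and 13.22 CPM in Mettl14 Control replicate 1.

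Mettl3 CKO against Control gave no call among the members, with a background of 0% of 16782 genes, 315 genes at an unadjusted p under 0.05 and 5 calls by DESeq2. The members' median was 0.26, beside -0.01 over all genes. Col1a1 (0.54 ± 0.27), Col1a2 (0.48 ± 0.34) and Col11a1 (0.80 ± 0.81) had every Mettl3 CKO library above every Control library, as 6.47% of genes did. limma voom with quality weights called Col1a1 (adjusted p = 0.0498), among 6 of 16782 genes. The type VI genes overlapped between these groups, at -0.19 ± 0.69 for Col6a1, -0.15 ± 0.76 for Col6a2 and 0.05 ± 0.39 for Col6a3. The effects of the knockouts in the 2 lines were compared directly by their difference, Mettl14 line minus Mettl3 line, in the fit of all 18 libraries. The difference was below 0 in all 9 genes, from -1.20 ± 0.97 in Col11a1 to -0.14 ± 0.33 in Col5a2, and none was called (background 0% of 16326 genes, 366 genes at an unadjusted p under 0.05, 17 calls by DESeq2). The changes with the inhibitors were compared in the same way, GSK343 against Mettl14 CKO minus GSK J4 against Mettl3 CKO. This difference was above 0 in all 9 genes, with a median of 5.01, and 8 were called (background 10.2% called and 8.3% called higher). Over all genes the median was 0.13, with 1355 higher and 313 lower, and scaled by total counts it was -0.05, with 1141 higher and 465 lower. Col5a2 was the exception (1.00 ± 0.33, edgeR adjusted p = 0.0606). Since each inhibitor was given to one line, inhibitor and line cannot be told apart here.

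Between Mettl14 Control and Mettl3 Control no member was called (background 0.913%). Col1a1 was higher without overlap in Mettl14 Control (0.81 ± 0.26, edgeR adjusted p = 0.31; 9.62% of genes were higher without overlap). Col3a1 (-0.83 ± 0.54) and Col11a1 (-1.04 ± 0.68) were lower without overlap, as 8.47% of genes were. The sum of the 6 chondrocyte markers (Sox9, Acan, Col2a1, Matn1, Comp and Hapln1) was 65.1 to 74.9 CPM in Mettl14 Control, against 66.2 to 220 CPM in Mettl3 Control, and its part in the Col11a1 value was not tested. limma voom called 5 members in this comparison (Col1a1, Col3a1, Col11a1, Col6a1 and Col6a2), among 859 of the 16326 genes it tested. Col1a1 was called in 3 other fits, without the low-count filter, with only these 2 groups, and without the GSK J4 libraries (adjusted p = 0.00242 to 0.0248). In that order, these fits called 280 of 34362, 583 of 14627 and 399 of 15813 genes.

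Genes that make, modify, bind and remove collagen were grouped into 6 lists, and none held a called gene in the Mettl14 line or in Mettl3 CKO against Control. With GSK J4 against Mettl3 CKO they did, where 9.07% of all genes were called lower and 664 of 16782 higher. Of 32 other collagen chains tested, 17 were called lower and none higher, with a median of -2.43, or -2.25 with 6 genes that had no count in the GSK J4 libraries set at their bounds. The basement membrane chain genes Col4a1 (376 ± 40.1 CPM with GSK J4, 2250 ± 42.4 in Mettl3 CKO) and Col4a2 (168 ± 44.9 and 1519 ± 190 in the same order) were among them, as were Col18a1 and Col16a1. Of 33 genes for folding and crosslinking, 22 were called lower and none higher (median -1.98, or -1.89 with bounds). Serpinh1, the collagen chaperone of the endoplasmic reticulum, fell to 256 ± 50.7 CPM with GSK J4, against 1045 ± 108 CPM in Mettl3 CKO. Fkbp10, a prolyl isomerase for procollagen, had 36.1 ± 3.24 CPM with GSK J4, against 375 ± 28.1 CPM, and Pcolce, an enhancer of procollagen processing, 22.6 ± 14.6 CPM against 319 ± 44.2 CPM. P4ha1 and P4ha2, the main prolyl hydroxylase chains, were not called (-0.14 ± 0.17 and -0.20 ± 0.20), nor was the lysyl hydroxylase Plod2 (0.04 ± 0.28); these 3 were picked after their values were seen.

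Of 11 receptors and uptake genes, 6 were called lower (median -2.29), among them the endocytic collagen receptor Mrc2 (-3.27 ± 0.25) and the fibrillar collagen receptor kinase Ddr2 (-1.84 ± 0.24). Of 14 degradation genes, 9 were called lower (median -2.30), with the gelatinase Mmp2 at -2.80 ± 0.29, the inhibitor Timp2 at -2.34 ± 0.16 and the collagen-cleaving cathepsin gene Ctsk at -6.30 ± 0.63. Of 22 TGF-beta genes, 10 were called lower and 1 higher (median -0.80). The ligand Tgfb2 was at -5.92 ± 0.82, the receptor Tgfbr2 at -1.90 ± 0.26 and the latent-form binding protein gene Ltbp3 at -3.21 ± 0.26, while Smad7, a feedback inhibitor, was the one higher (0.94 ± 0.24). The 25 transcription factors named for collagen genes had a median of 0.09, near that of all genes: Jun (1.06 ± 0.21), Klf10 (1.68 ± 0.36), Ybx1 (0.74 ± 0.17) and Nfyb (1.33 ± 0.33), a CCAAT-binding subunit, were called higher, and Yap1 (-0.90 ± 0.26) lower, all by edgeR at an adjusted p of 0.0071 to 0.0409. Against Mettl3 Control 8.25% of all genes were called lower and 531 of 16782 higher. There the lists gave 15, 21, 5, 9, 9 and 1 genes lower in the same order, of 32, 33, 11, 14, 22 and 25 tested. Called higher were 4 TGF-beta genes and 2 transcription factors. Between the Controls, where 0.913% of all genes were called, 5 genes of the lists were higher in Mettl14 Control and 3 lower. The gelatinase gene Mmp9 had 1522 ± 252 CPM in Mettl14 Control, against 4.21 ± 2.72 CPM in Mettl3 Control (SD, n = 3), a log2 difference of 8.49 ± 0.82 (SE, edgeR adjusted p = 2.42e-06). Mmp13, an interstitial collagenase, had 2575 ± 181 CPM in Mettl14 Control, against 181 ± 104 CPM in Mettl3 Control. The other 3 higher genes were Lox, a crosslinking enzyme (1.70 ± 0.28), Itga2, a collagen receptor subunit (1.99 ± 0.45), and Ltbp2, of the family that binds latent TGF-beta (1.99 ± 0.39). The 3 lower ones were the metalloproteinase inhibitor Timp3 (-1.80 ± 0.20), the matricellular gene Ccn2 (-1.37 ± 0.25) and Col2a1, the main fibrillar chain of cartilage (-5.39 ± 1.16). Col2a1 had 1.81 ± 2.02 CPM in Mettl14 Control, against 76.1 ± 77.1 CPM in Mettl3 Control, and its libraries overlapped.

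**Figure D4:**
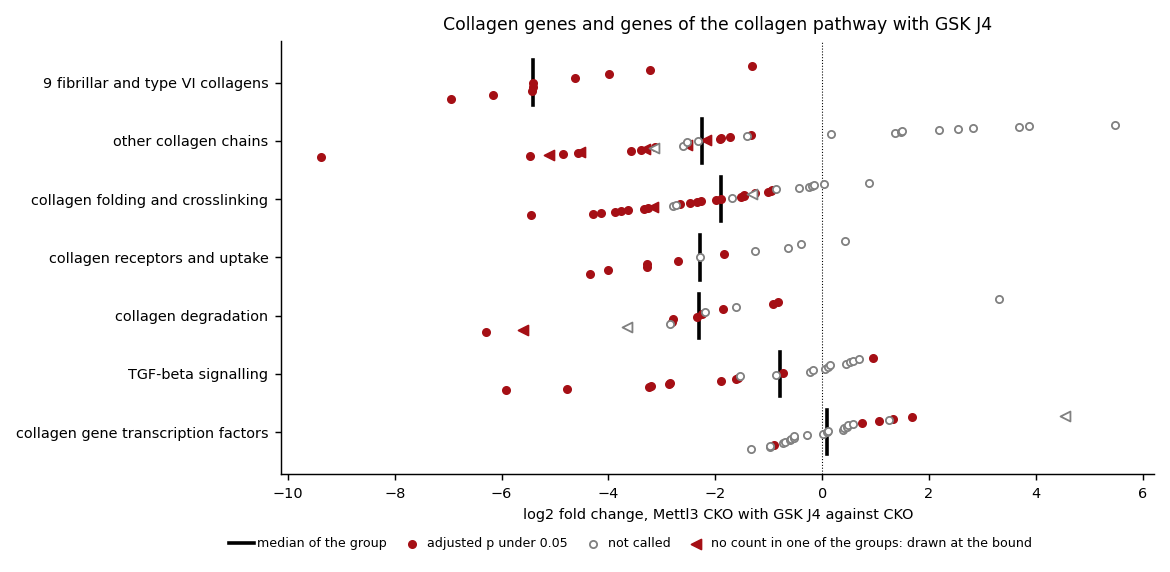
Log2 fold change of GSK J4 against Mettl3 CKO (horizontal axis) for the 9 collagen genes and for 6 lists of related genes (rows), each point a gene and each black bar a median. With genes at their bounds, the medians of 4 lists lie between -2.30 and -1.89, and those of TGF-beta genes and transcription factors at -0.80 and 0.09; triangles are genes with no count in one group, drawn at the bound that 3 counts per library allow.

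The genes whose log2 levels were most like the mean of the 9 standardized members, over the 15 libraries without GSK J4 and among 8994 protein-coding genes at 10 CPM or more, were Fbn1 (Pearson r = 0.929), Col4a1 (0.917), Cd276 (0.899), Fn1 (0.886), Sned1 (0.877) and Hip1 (0.877). Fbn1 encodes fibrillin of the elastic microfibril and Fn1 fibronectin. Over all 18 libraries they were Lama4 (0.988), Aebp1 (0.986), Mrc2 (0.984), Gpc1 (0.984), Ccdc8 (0.984) and Anpep (0.982). No gene was in both sets. Libraries of one group share line and treatment, so these r values are descriptions.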

How the data were processed

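PolyA RNA was purified from Trizol extracts and made into libraries with a stranded kit, per the labels' protocols. The submitters' processing notes list CASAVA, Trimmomatic 0.38, HISAT2 2.1.0, HTSeq and mm10, without saying what each did. What the authors deposited are whole-number counts for each gene, with no normalization. Neither the annotation release nor the strand setting is given in the sources used here; 54409 of 54446 identifiers matched GENCODE M21, which gave symbols, lengths and coordinates. Without a stated strand setting, Col5a1 cannot be told apart from its antisense neighbours where they overlap, which had 979 and 12 counts against its 238028.

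Comparisons used R 4.3.3 and the quasi-likelihood test of edgeR 4.0.16, after filterByExpr and TMM scaling, with Benjamini-Hochberg adjustment over all genes and a threshold of 0.05. Each line's 9 libraries were fitted together, and all 18 for comparisons across lines. All 9 members passed the filter on low counts in every fit; a member can pass through the group where it is high. The biological coefficient of variation was 0.394, 0.843 and 0.664 in the Mettl14 line, the Mettl3 line and all libraries. CPM were TMM-scaled over 18 libraries, and CPM per kb of merged exons replaced the planned per-million scaling of lengths, which short noncoding genes distorted. A count of 0 was bounded by 3 counts per library, so depth sets bounds of 0.0922 to 4.16 CPM, for counting error only. Members, lists and tests were chosen with earlier results of these data known. Named genes are the members, up to 4 called genes with the smallest p per list and comparison, and the 6 genes most like the members, except where the text says otherwise. Replicate numbers gave no sign of pairing: correlations of same-numbered deviations between groups were -0.141 to 0.13 over 18 pairs, 1 of them over 0.1. With 3 libraries per group these values cannot exclude a shared culture or day. The fits were tested on simulated data. Alternatives were DESeq2 1.42.0, limma 3.58.1 voom with quality weights, other size factors, no filter, a replicate block, other sample sets and leaving out each library. Leaving out the 2 shallowest libraries, or those with GSK J4, was added after the data were seen. Figures used matplotlib 3.10.9.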

Additional observations from a re-analysis of the deposited data

Results flagged for a closer look

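In 8 of the 9 genes the change with the inhibitor differed between the lines by the test of the difference itself, GSK343 against Mettl14 CKO minus GSK J4 against Mettl3 CKO, fitted by edgeR on all 18 libraries. The log2 difference was 5.01 in Col1a1, 5.10 in Col1a2, 5.77 in Col3a1, 3.12 in Col5a1, 3.78 in Col11a1, 5.16 in Col6a1, 6.84 in Col6a2 and 4.59 in Col6a3. The adjusted p ran from 3.06e-08 in Col1a1 to 0.0196 in Col11a1. The genes were chosen with this contrast known, 10.2% of all genes passed the same test, and each inhibitor was given in 1 line alone, so these values describe the libraries. Col11a1 lost the call without GSK343 replicate 2 (3.28, adjusted p = 0.0678) and without Mettl3 CKO replicate 2 (3.46, adjusted p = 0.0622). Leaving out GSK J4 replicate 2 moved Col6a2 to 12.30, Col11a1 to 5.28 and Col3a1 to 5.19, and gave Col5a2 a call (1.25, adjusted p = 0.0109). Leaving out GSK J4 replicate 1 moved Col3a1 to 7.68, and replicate 3 Col6a1 to 6.09. By limma voom Col3a1 was at 6.93, Col6a1 at 7.70, Col6a2 at 9.36 and Col11a1 at 4.47, the last without a call (adjusted p = 0.0756).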

How the results depend on the processing

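No called member changed sign under any alternative run. With GSK J4, leaving out 1 library at a time left 8 to 9 members called against Mettl3 CKO, 7 to 9 against Mettl3 Control and 7 to 9 in the difference between the inhibitors. It left 0 called in each of the other 6 comparisons. The members' share of counts ranged over such omissions from 0.890 to 1.01% with GSK343, 1.05 to 1.26% in Mettl14 CKO, 1.35 to 1.51% in Mettl14 Control, 0.102 to 0.126% with GSK J4, 1.52 to 1.67% in Mettl3 CKO and 1.11 to 1.41% in Mettl3 Control. For GSK343 against Mettl14 Control, where 0 members were called, DESeq2, limma voom, no low-count filter and the omission of the 2 shallowest libraries gave 2 each, and only the 2 groups compared gave 1. For Mettl3 CKO against Control limma voom gave 1. Between the Controls limma voom gave 5, no filter 2, and only the 2 groups or the omission of the GSK J4 libraries 1 each; the cause was not tested. The replicate block left 0, 0, 0, 0, 9, 8, 0, 0 and 8 members called in the order of the comparisons within the Mettl14 line (CKO against Control, GSK343 against CKO and against Control), those within the Mettl3 line, and the 3 across lines. The one call it ended was Col11a1 with GSK J4 against Mettl3 Control (-3.68, adjusted p = 0.0691). Over all genes, GSK J4 against Mettl3 CKO gave 2186 calls, against 3700 by DESeq2, 3373 with all 18 libraries, 1407 under the block and 977 with only the 2 groups. Against Mettl3 Control it gave 1916, against 3463, 3155, 1256 and 887. GSK343 against Control gave 23 (2 to 70 over the alternatives that kept all replicates) and against Mettl14 CKO 4 (0 to 56), with DESeq2 highest and all 18 libraries lowest in both. DESeq2 split its calls as 47 higher and 23 lower in the first (21 and 2 by edgeR) and 34 and 22 in the second (4 and 0). It gave 1472 and 1991 with GSK J4 against Mettl3 Control, and 1596 and 752 in the difference between the inhibitors. The Controls gave 149, and 288 by DESeq2, 859 by limma voom, 280 with no filter, 583 with only the 2 groups and 399 without GSK J4. The difference between the inhibitors gave 1668, and 856 by limma voom. Mettl3 CKO against Control gave 0, and 5 by DESeq2, 2 with only the 2 groups, and 6 each by limma voom and with no filter. The difference between the knockouts gave 0, and 17 by DESeq2 and 13 with no filter, and Mettl14 CKO against Control 0, and 15 with no filter. DESeq2 gave no adjusted p for Col6a2 in any comparison within the Mettl3 line or across the lines, whose fits held the GSK J4 libraries. Its member calls there do not cover this gene. With the longest transcript as the length, 27 of 46 group ratios moved by more than 1 SD, to 0.359 to 0.714 for Col1a2 to Col1a1, 1.49 to 6.27 for Col5a2 to Col5a1 and 0.631 to 0.804 for Col6a2 to Col6a1. Col11a1, Col6a1 and Col6a2 had 0 counts in 1 GSK J4 library each, where depth sets the bound on the level. Depth did not order the counts of Col11a1, with 0 in replicate 3 (4850897 counts in all) and 11 in the shallower replicate 1 (3395675). The 0 counts of Col6a1 and Col6a2 were in replicate 1, the shallowest of the group. Col6a2 followed depth, with 0 counts in replicate 1, 1 in replicate 3 and 120 in the deepest, replicate 2 (8289423). The part of depth in these values was not tested.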
